A study of Arabidopsis thaliana with 6 samples.

Results

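The 33 nuclear genes described here encode the Rubisco small subunit and its activase (5 genes), the enzymes of the Calvin cycle with the regulator CP12 (14), the enzymes of photorespiration (12) and carbonic anhydrases (2). They were chosen by function from 28141 features in the expression tables, and the values of all transcripts of a locus were summed. RNA was sequenced from whole 5-day-old seedlings of the Arabidopsis thaliana accession Col-0, grown on MS plates at 23 °C with a day of 16 h and a night of 8 h, after removal of ribosomal RNA. Each genotype, wild-type and fip37-4 LEC1:FIP37, had 3 libraries. FIP37 belongs to the methyltransferase complex that places N6-methyladenosine in mRNA. In the second genotype the fip37-4 allele disrupts the gene, and a transgene supplies the protein under the LEC1 promoter, which is active in the embryo. The labels name no further allele or treatment, and whether replicates were grown on separate plates is not stated, so p-values reflect spread among libraries that may be technical only.

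In the Calvin cycle, Rubisco joins CO2 to ribulose 1,5-bisphosphate in the chloroplast, and the products are reduced and rearranged to regenerate that acceptor. Rubisco also accepts oxygen, which yields 2-phosphoglycolate. Photorespiration returns the carbon of that compound to the cycle through reactions in chloroplasts, peroxisomes and mitochondria. In green seedlings, transcripts of the small subunit are among the most abundant in the cell, since mesophyll devotes much of its protein to Rubisco.

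Calls in the fip37-4 LEC1:FIP37 libraries differed in direction within and between the pathways. Of the 5 genes for the Rubisco small subunit and activase, 4 rose and 1 fell. Of the 14 Calvin cycle genes, 7 rose and 2 fell, and of the 11 tested photorespiration genes none rose and 6 fell. Both carbonic anhydrases rose. In all, 32 of the 33 members could be tested, 13 were called higher and 9 lower (limma on log2(FPKM + 0.5), adjusted p under 0.05 with Benjamini-Hochberg adjustment over 19383 features), and their median log2 fold change was 0.01. FPKM counts fragments relative to the length of a transcript and to all fragments mapped in that library.

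These counts have to be read against a transcriptome in which 58.6% of features were called, 27.6% higher and 30.9% lower, with a median log2 fold change of -0.002. The background also depended on level, by classes that were set after the values had been seen. Among 2341 features with a mean from 30 to 1000 FPKM, where 27 of the tested members lie, 22% were called higher and 58% lower, with a median of -0.25. This class was not uniform. At its upper end, 114 features had a log10 mean from 2.5 to 3.0, and many of the 27 members lie there. Of these features 43.9% were called higher and 31.6% lower, with a median of 0.09. Among 97 features with a mean of at least 1000 FPKM, 75.3% were called higher and 5.15% lower, with a median of 0.51; 5 of these were members and 16 were light-harvesting genes. The groups did not overlap for 24 members, 13 higher and 11 lower, against 65.9% of all features (31.9% higher and 34.1% lower). The 6 of 11 photorespiration genes called lower are thus close to the 58% of features of 30 to 1000 FPKM, though 0 were higher, against 22%. The 14 Calvin cycle genes lie in the same class, but 7 were higher and 2 lower, unlike its shares. Many of them, among them PRK, both GAPA genes and FBA2, lie at its upper end, however. There 43.9% of features were higher and 31.6% lower, so level and pathway are not told apart by this contrast. The 4 Rubisco genes called higher have means of at least 1000 FPKM, where 75.3% of features were higher. RBCS1B, which was lower, lies in the class of 30 to 1000 FPKM. Under quantile normalization, which gives all libraries the same distribution of values, 15 members were higher and 5 lower, and for photorespiration 2 were higher and 3 lower.

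**Figure D1:**
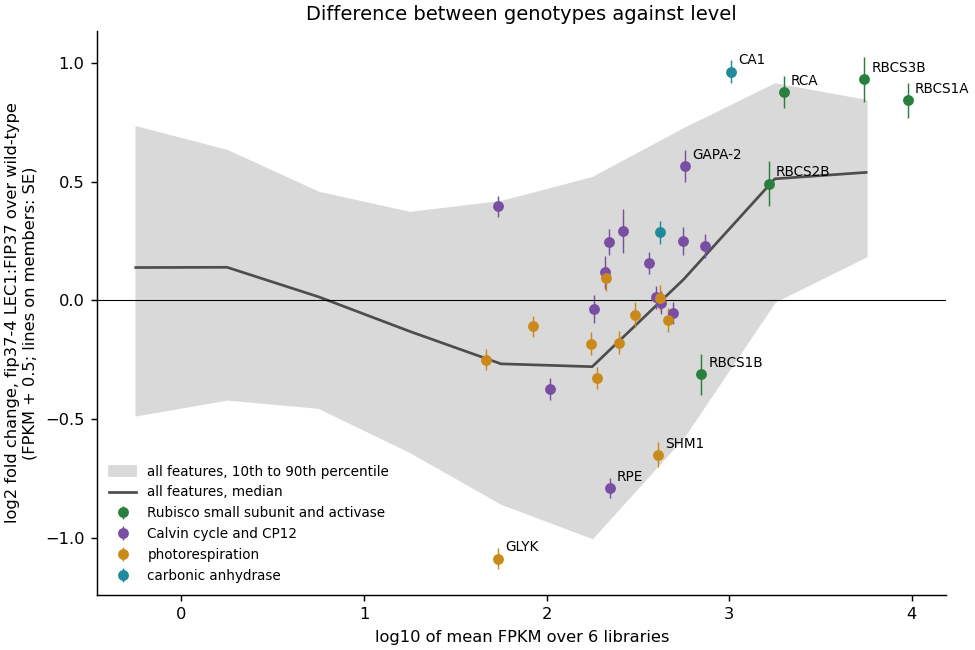
Log2 fold change (fip37-4 LEC1:FIP37 over wild-type, on log2(FPKM + 0.5); lines on members show the SE) against log10 of the mean FPKM over 6 libraries for the 32 tested members, with the median and the 10th to 90th percentiles of all features as a line and a grey band. CA1, RBCS3B and GLYK lie outside the band at their level, at 0.97, 0.93 and -1.09. RBCS1A, at 0.84, lies beyond the last class centre of 3.75, where no band is drawn. The other Calvin cycle and photorespiration genes lie within the band as drawn, which joins the centres of level classes. SHM1, at -0.65, is nevertheless below the 10th percentile of -0.57 of its own class, a log10 mean from 2.5 to 3.0.

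FIP37 itself (AT3G54170) was at 8.99, 9.03 and 8.96 FPKM in wild-type and at 80.6, 65.0 and 67.5 FPKM in the other libraries, where transcripts of the transgene and of the endogenous gene are summed. This level therefore does not show a loss of FIP37, and directions are those of the libraries so labelled. The libraries summed to 1160321 to 1350343 FPKM and held 22472 to 22884 loci above 0, while the sources used here do not give the number of fragments behind a value. Organelle transcripts held from 50.7% to 51.3% of the summed value in wild-type and from 56.9% to 60.1% in fip37-4 LEC1:FIP37. Markers of root and shoot cell types were found in all libraries, as whole seedlings should hold them, and none of the 28 markers listed was at 0. Several moved with the genotype, where 27.6% of all features rose and 30.9% fell. Of 7 root endodermis markers 6 fell, and their summed level was 42.6 to 46.3 FPKM in wild-type and 27.3 to 29.2 FPKM in fip37-4 LEC1:FIP37. The 3 tested of 6 root hair markers rose, with summed levels of 2.83 to 3.08 and 5.33 to 5.49 FPKM. Among them, RHD6 and RSL4 reached 0.5 FPKM, which a test required in 3 libraries, only in fip37-4 LEC1:FIP37. Their wild-type means were 0.43 and 0.33 FPKM, so being tested at all favoured a rise. The 2 tested of 3 stele markers also rose, with 13.4 to 14.7 and 25.8 to 27.3 FPKM. Of 4 guard cell markers 3 rose (15.4 to 15.9 and 19.7 to 22.2 FPKM), of 4 phloem markers 2 rose (111 to 115 and 124 to 129.7 FPKM), and of 4 shoot epidermis markers 1 rose and 3 fell (354 to 370.4 and 282 to 300.2 FPKM). The part of cell composition in the differences given here was not tested, and in RNA of whole seedlings fewer cells of a type and less RNA per cell cannot be told apart.

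The Rubisco small subunit is encoded by 4 genes, RBCS1A (AT1G67090) on chromosome 1 and the tandem copies RBCS1B (AT5G38430), RBCS2B (AT5G38420) and RBCS3B (AT5G38410) on chromosome 5. Their promoters are shown because copies with coding sequences alike at 90.4% to 97.3% of aligned bases differed in direction. Each sequence runs 5′ to 3′ on the minus strand of TAIR10.1 (RefSeq) and covers 250 bases before to 50 bases after the annotated transcript start nearest the start codon. The windows are chr1:25049375-25049674 for RBCS1A, chr5:15385198-15385497 for RBCS1B, chr5:15382022-15382321 for RBCS2B and chr5:15378367-15378666 for RBCS3B. Capitals mark the G-box CACGTG, which reads the same on both strands, and the I-box GATAAG or its complement CTTATC, both known from promoters of light-regulated genes.
RBCS1A: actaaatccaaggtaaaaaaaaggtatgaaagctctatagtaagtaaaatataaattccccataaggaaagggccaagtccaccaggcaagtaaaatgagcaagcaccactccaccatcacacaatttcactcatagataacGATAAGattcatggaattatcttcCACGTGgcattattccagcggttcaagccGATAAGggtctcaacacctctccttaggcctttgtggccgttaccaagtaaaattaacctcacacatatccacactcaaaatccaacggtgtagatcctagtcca
RBCS1B: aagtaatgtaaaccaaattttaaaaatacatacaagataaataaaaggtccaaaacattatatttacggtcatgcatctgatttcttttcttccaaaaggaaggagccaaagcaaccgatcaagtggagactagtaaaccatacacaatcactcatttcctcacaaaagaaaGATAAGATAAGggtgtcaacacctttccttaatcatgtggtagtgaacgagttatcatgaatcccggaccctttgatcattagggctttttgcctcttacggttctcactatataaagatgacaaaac
RBCS2B: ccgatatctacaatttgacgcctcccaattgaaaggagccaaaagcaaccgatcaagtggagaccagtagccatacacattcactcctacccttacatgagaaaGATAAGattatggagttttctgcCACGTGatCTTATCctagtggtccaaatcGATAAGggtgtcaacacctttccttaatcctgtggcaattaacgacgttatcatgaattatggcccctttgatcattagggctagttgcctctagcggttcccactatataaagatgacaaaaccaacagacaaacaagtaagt
RBCS3B: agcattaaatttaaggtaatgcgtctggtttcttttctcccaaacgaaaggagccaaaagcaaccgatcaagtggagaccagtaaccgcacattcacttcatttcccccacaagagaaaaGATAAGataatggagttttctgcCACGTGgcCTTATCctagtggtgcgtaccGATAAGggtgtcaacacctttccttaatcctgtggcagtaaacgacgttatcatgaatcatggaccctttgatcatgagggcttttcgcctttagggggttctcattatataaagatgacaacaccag
The RBCS1A, RBCS2B and RBCS3B windows each hold 1 G-box, at positions -84, -123 and -107 from the annotated start, with an I-box on either side of it. The RBCS1B window holds no G-box and 2 I-boxes that overlap by 1 base, at positions -78 and -73.

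RBCS1A was the most abundant member, at 6807, 6793 and 6761 FPKM in wild-type and 11133, 12489.6 and 13002 FPKM in fip37-4 LEC1:FIP37. The groups did not overlap, and replicate 1 was the lowest of the fip37-4 LEC1:FIP37 libraries, as it was for the other 3 copies. The gene rose by 0.84 ± 0.0728 on the log2 scale (SE, here and below; limma adjusted p = 2.88e-05, n = 3 per group here and below). RBCS3B was at 3687, 3743 and 3843 FPKM in wild-type and 6132, 7744 and 7759.8 FPKM in fip37-4 LEC1:FIP37. Its libraries were also fully separated, with a log2 fold change of 0.93 ± 0.0951 (limma adjusted p = 7.05e-05). RBCS2B, at 1255, 1345 and 1506 FPKM against 1706, 2007 and 2071 FPKM, rose by 0.49 ± 0.0934 (limma adjusted p = 0.00212).

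RBCS1B, the least abundant copy, went the other way. It was at 782, 760.2 and 795 FPKM in wild-type and 542, 672 and 680.3 FPKM in fip37-4 LEC1:FIP37. All 3 of the latter lay below the wild-type libraries, and the log2 fold change was -0.31 ± 0.0868 (limma adjusted p = 0.0144). Without fip37-4 LEC1:FIP37 replicate 1 it was -0.20 (limma adjusted p = 0.000556; adjusted p from 0.000108 to 0.0496 over all alternatives). RBCS1B and RBCS3B share a stretch of 230 identical coding bases, so the authors' estimation could split fragments between copies, and the values of single copies are uncertain.

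The sum of the 4 copies depends less on that split, only through the unequal lengths by which fragments are scaled. It was 12531, 12641 and 12906 FPKM in wild-type and 19512, 22912 and 23513 FPKM in fip37-4 LEC1:FIP37, a log2 fold change of 0.79 ± 0.0832 (limma adjusted p = 8.37e-05). As a share of all nuclear FPKM, the 4 genes went from 2.56% ± 0.0367 to 4.35% ± 0.206 (SD). Under quantile normalization these differences were smaller, at 0.28 for RBCS1A, 0.44 for RBCS3B and 0.26 for the sum of the normalized copies, and larger for RBCS1B at -0.56. RBCS2B was then at 0.00 and no longer called (limma adjusted p = 0.985; adjusted p from 8.17e-05 to 0.985 over all alternatives), and the sum of the 3 normalized chromosome 5 copies was at 0.24 in place of 0.72 (limma adjusted p = 0.00807; adjusted p from 2.33e-07 to 0.0551 over all alternatives). Sums under quantile normalization are given here for copies normalized before summing, an alternative chosen after seeing the data; the closing section also gives those of a sum ranked as 1 feature.

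**Figure D2:**
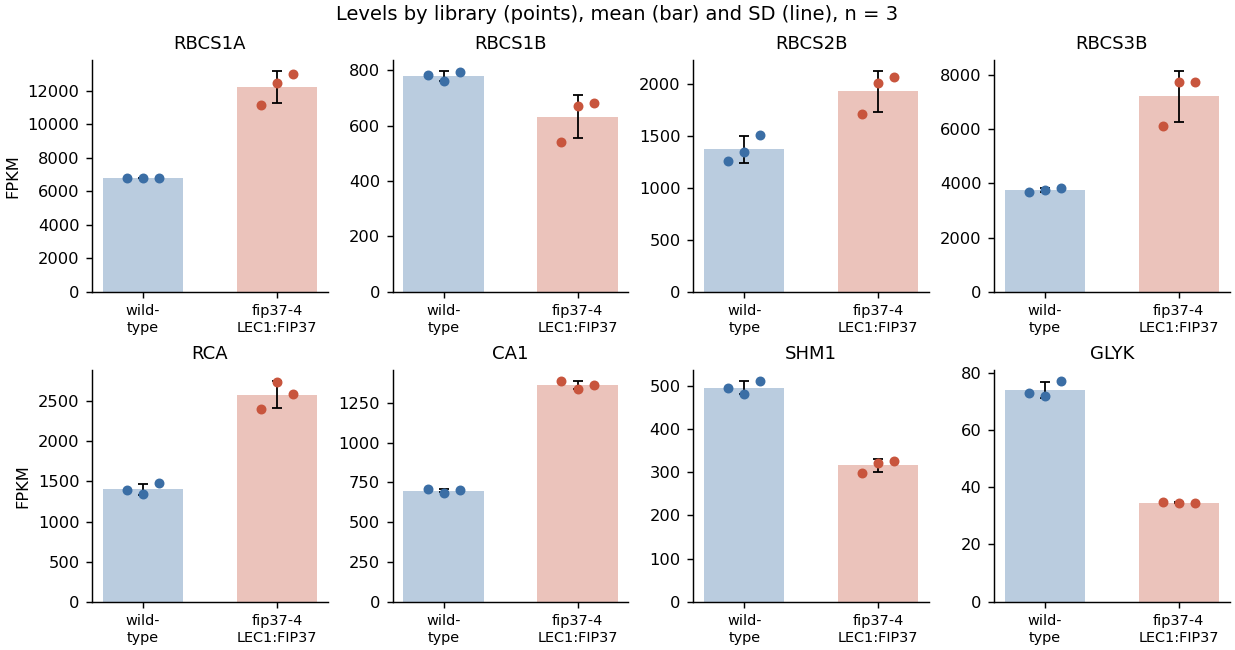
FPKM (y axis) of RBCS1A, RBCS1B, RBCS2B, RBCS3B, RCA, CA1, SHM1 and GLYK in wild-type and fip37-4 LEC1:FIP37, with each library as a point, the mean as a bar and the SD as a line (n = 3). RBCS1A, RBCS2B, RBCS3B, RCA and CA1 are higher in all 3 fip37-4 LEC1:FIP37 libraries than in any wild-type library, and RBCS1B, SHM1 and GLYK are lower.

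Rubisco activase, RCA (AT2G39730), removes inhibitory sugar phosphates from Rubisco sites. It was at 1394, 1338 and 1478 FPKM in wild-type and 2409, 2746 and 2589 FPKM in fip37-4 LEC1:FIP37. The groups were far apart, and RCA rose by 0.88 ± 0.0679 (limma adjusted p = 1.67e-05), or by 0.37 under quantile normalization. Alternative splicing gives a long form, whose extra carboxyl-terminal end carries the redox-sensitive cysteines, and a short form. The splice sequences are shown because the balance of these forms differed between the genotypes. Both run 5′ to 3′ on the minus strand of TAIR10.1 within chr2:16571046-16571220, from the last 30 shared bases of exon 6 into the first 21 bases of exon 7. Capitals mark the 11 bases that only the short form keeps.
RCA long form: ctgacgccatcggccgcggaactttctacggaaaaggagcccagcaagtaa
RCA short form: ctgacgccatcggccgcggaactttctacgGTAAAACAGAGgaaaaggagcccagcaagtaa
With the 11 bases the reading frame ends at the last 3 bases shown, after 446 codons, whereas the long form reads through them to 474 codons.

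The long form (AT2G39730.1) made up 52.9%, 52.6% and 52.5% of RCA in wild-type and 56.7%, 57.5% and 57.3% in fip37-4 LEC1:FIP37. The short form (AT2G39730.2) made up 46.8%, 47.0% and 47.2% and then 42.9%, 42.2% and 42.4%. Each wild-type library lay apart from each fip37-4 LEC1:FIP37 library, by 4.51 percentage points in the means of the long form. The exact two-sided permutation p was 0.1 for either form, the smallest that 3 against 3 libraries allow, and 0.15 after adjustment over 3 isoforms. These shares rest on the authors' estimates of isoform levels, and the third isoform held 0.322% and 0.308%.

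Carbonic anhydrases interconvert CO2 and bicarbonate. The chloroplast enzyme CA1 (AT3G01500) was at 705, 685 and 702 FPKM in wild-type and 1385, 1338 and 1363 FPKM in fip37-4 LEC1:FIP37. Replicates lay close together, and the gene rose by 0.97 ± 0.0477 (limma adjusted p = 2.27e-06), or by 0.63 under quantile normalization. CA2 (AT5G14740), the abundant second beta-carbonic anhydrase, was at 379.6, 371 and 375 FPKM and then 478, 444 and 452 FPKM. Its groups were also separate, with a smaller log2 fold change of 0.29 ± 0.0483 (limma adjusted p = 0.0011). The share of CA1 in the sum of both thus stood at 65.0%, 64.8% and 65.2% in wild-type and at 74.3%, 75.1% and 75.1% in fip37-4 LEC1:FIP37, with p = 0.1 by exact two-sided permutation, the smallest possible, and 0.117 adjusted over 7 copy shares.

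The first steps after carboxylation use phosphoglycerate kinase and the chloroplast glyceraldehyde-3-phosphate dehydrogenase of A and B subunits. Both A subunit genes rose. GAPA-2 (AT1G12900) was at 465, 452 and 474 FPKM in wild-type and 619, 729.9 and 718 FPKM in fip37-4 LEC1:FIP37, and GAPA (AT3G26650) at 510.2, 496 and 515 FPKM and then 559.6, 635 and 618 FPKM. All fip37-4 LEC1:FIP37 libraries were above wild-type for either gene, by 0.57 ± 0.0693 for GAPA-2 (limma adjusted p = 0.000189) and 0.25 ± 0.0589 for GAPA (limma adjusted p = 0.00628). The share of GAPA in both went from 52.2% to 46.8% in the means, with no overlap (two-sided exact p = 0.1; 0.117 adjusted). The sum of both rose by 0.41 ± 0.066 (limma adjusted p = 0.000851). Under quantile normalization GAPA was at 0.17 (limma adjusted p = 0.012) and GAPA-2 at 0.48 (limma adjusted p = 4.5e-05), and the sum of the normalized copies at 0.32 (limma adjusted p = 0.000382; adjusted p from 2.76e-06 to 0.872 over all alternatives).

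The B subunit gene GAPB (AT1G42970) was at 502, 486 and 509 FPKM in wild-type and 483, 482 and 478 FPKM in fip37-4 LEC1:FIP37. The fip37-4 LEC1:FIP37 libraries were all slightly below wild-type, but GAPB did not pass the test (log2 fold change -0.05 ± 0.0454, limma adjusted p = 0.351). The ratio of summed GAPA transcripts to GAPB was 1.94, 1.95 and 1.94 in wild-type and 2.44, 2.83 and 2.79 in fip37-4 LEC1:FIP37. PGK1 (AT3G12780), the kinase, was at 416 to 437 FPKM in wild-type and 409 to 437 FPKM in fip37-4 LEC1:FIP37 (log2 fold change -0.01 ± 0.0488, limma adjusted p = 0.874).

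Among the enzymes that regenerate the acceptor, those acting on ribulose 5-phosphate differed in direction. RPE (AT5G61410), the epimerase that makes ribulose 5-phosphate from xylulose 5-phosphate, was at 275, 279 and 288 FPKM in wild-type and 159, 163 and 163 FPKM in fip37-4 LEC1:FIP37. It was the member of the cycle with the lowest fold change, -0.79 ± 0.0437 (limma adjusted p = 3.68e-06), with wide separation of the groups. RPI3 (AT3G04790), the isomerase that makes the same product from ribose 5-phosphate, was at 45.3, 46.9 and 47.8 FPKM and then 60.2, 62.7 and 61.9 FPKM. It rose by 0.40 ± 0.0437 (limma adjusted p = 0.000106), and by 0.65 under quantile normalization and 0.61 once a trend with transcript length was removed. PRK (AT1G32060), phosphoribulokinase, which makes the acceptor from ribulose 5-phosphate, was at 348, 339.9 and 350.3 FPKM in wild-type and 398, 379 and 381 FPKM in fip37-4 LEC1:FIP37. The groups did not overlap, and PRK rose by 0.16 ± 0.0456 (limma adjusted p = 0.0166). That call was lost without wild-type replicate 1 (limma adjusted p = 0.0607) or replicate 2 (limma adjusted p = 0.0693) and with nuclear loci only (limma adjusted p = 0.0711; adjusted p from 0.00469 over all alternatives).

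The chloroplast aldolases FBA1 (AT2G21330) and FBA2 (AT4G38970), which join triose phosphates, rose by nearly the same amount. FBA2 was at 681, 662 and 693 FPKM in wild-type and 768, 816 and 805 FPKM in fip37-4 LEC1:FIP37, and FBA1 at 203, 193 and 209 FPKM and then 227, 251 and 240.4 FPKM. Neither pair of groups overlapped, and the log2 fold changes were 0.23 ± 0.05 for FBA2 (limma adjusted p = 0.00422) and 0.25 ± 0.0541 for FBA1 (limma adjusted p = 0.00446). Under quantile normalization FBA1 was at 0.46, FBA2 lost its call at 0.01 (limma adjusted p = 0.812), and the sum of the normalized copies was at 0.12 in place of 0.23 (limma adjusted p = 0.048; adjusted p from 0.000157 to 0.0772 over all alternatives).

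The bisphosphatases and transketolase did not pass the test, and their groups overlapped. SBPASE (AT3G55800), sedoheptulose-1,7-bisphosphatase, was at 184, 179 and 190.4 FPKM in wild-type and 166, 186 and 189 FPKM in fip37-4 LEC1:FIP37, with a log2 fold change of -0.04 ± 0.0595 (limma adjusted p = 0.622). Under quantile normalization it was at 0.19 and passed (limma adjusted p = 0.00477; adjusted p up to 0.882 over all alternatives). HCEF1 (AT3G54050), the chloroplast fructose-1,6-bisphosphatase, was at 195 to 207 FPKM in wild-type and at 194, 233 and 225 FPKM in fip37-4 LEC1:FIP37, with a log2 fold change of 0.12 ± 0.0703 (limma adjusted p = 0.176). Replicate 1 alone was not above wild-type, and without it the log2 fold change was 0.20 (limma adjusted p = 0.00175). HCEF1 also passed at 0.34 under quantile normalization (limma adjusted p = 0.00144) and at 0.21 without the length trend (limma adjusted p = 0.0181; adjusted p up to 0.463 over all alternatives). TKL1 (AT3G60750), transketolase, was at 385 to 403 FPKM and 384 to 410.1 FPKM (log2 fold change 0.01 ± 0.0483, limma adjusted p = 0.827).

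CP12 proteins bind the dehydrogenase and phosphoribulokinase in the dark. CP12-1 (AT2G47400) was at 212, 226 and 271 FPKM in wild-type and 280.5, 312 and 274 FPKM in fip37-4 LEC1:FIP37. The highest wild-type library lay just under the lowest of the other group, and CP12-1 rose by 0.29 ± 0.0931 (limma adjusted p = 0.0254). The call was lost without any one of wild-type replicates 1 and 2 and fip37-4 LEC1:FIP37 replicates 1 and 2 (limma adjusted p = 0.0957, 0.0856, 0.0969 and 0.0834; adjusted p from 0.00114 over all alternatives). CP12-2 (AT3G62410) was at 116, 120.1 and 118 FPKM in wild-type and 94.9, 87.8 and 91.0 FPKM in fip37-4 LEC1:FIP37. Its groups were separate, and it fell by 0.37 on the log2 scale, with an SE of 0.0463 (limma adjusted p = 0.000208). CP12-2 lost its call under quantile normalization, at -0.07 (limma adjusted p = 0.36), and after removal of the length trend, at -0.13 (limma adjusted p = 0.122; adjusted p from 1.54e-05 over all alternatives). The share of CP12-1 in both genes was 64.7% to 69.6% in wild-type and 74.7% to 78.0% in fip37-4 LEC1:FIP37 (two-sided exact p = 0.1; 0.117 adjusted).

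**Figure D3:**
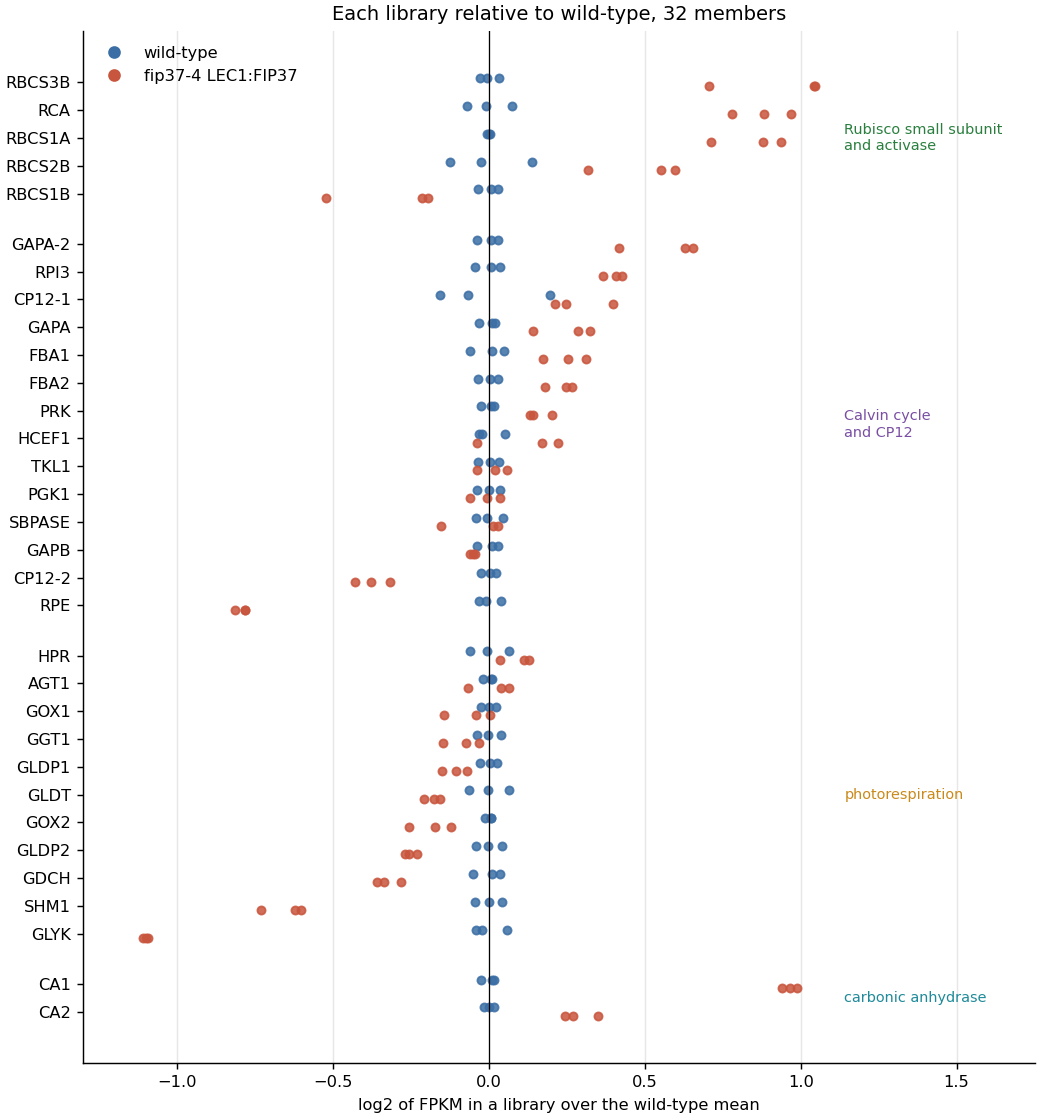
Log2 of the FPKM in each library over the wild-type mean (x axis) for the 32 tested members, by pathway, with wild-type libraries in blue and fip37-4 LEC1:FIP37 libraries in red. The fip37-4 LEC1:FIP37 libraries lie to the right of wild-type for 4 of 5 Rubisco genes and both carbonic anhydrases, on both sides for the Calvin cycle, and to the left without overlap for 7 of the 11 photorespiration genes.

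In photorespiration the members with the largest differences act at the mitochondrial glycine-to-serine step and at the last step of the pathway. GLYK (AT1G80380), glycerate kinase, returns the recovered carbon to the Calvin cycle as 3-phosphoglycerate. It was at 72.9, 71.9 and 77.0 FPKM in wild-type and 34.7, 34.5 and 34.3 FPKM in fip37-4 LEC1:FIP37. The groups were wide apart and the 3 fip37-4 LEC1:FIP37 libraries nearly equal, with a log2 fold change of -1.09 ± 0.0441 (limma adjusted p = 1.11e-06). This was the lowest value among the members, and it was -0.85 under quantile normalization. SHM1 (AT4G37930), the mitochondrial serine hydroxymethyltransferase, was at 496, 481 and 511 FPKM in wild-type and 299, 322 and 327 FPKM in fip37-4 LEC1:FIP37. Its libraries did not overlap, and it fell by 0.65 on the log2 scale with an SE of 0.0532 (limma adjusted p = 2.2e-05); over all alternatives it lay between -0.67 and -0.61.

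Glycine decarboxylase, which works with SHM1, has P, H, T and L proteins. GDCH (AT2G35370), an H protein gene, was at 213, 204 and 216 FPKM in wild-type and 164, 167 and 174 FPKM in fip37-4 LEC1:FIP37. All 3 libraries were below wild-type, at -0.33 ± 0.0469 (limma adjusted p = 0.000467), though GDCH was at -0.10 after removal of the length trend (limma adjusted p = 0.0491) and also at -0.10 under quantile normalization, where it lost its call (limma adjusted p = 0.0633; adjusted p from 0.000119 over all alternatives). GLDT (AT1G11860), the T protein gene, was at 263, 253 and 276 FPKM and then 229, 237 and 234 FPKM. Its groups did not overlap and it fell by 0.18 on the log2 scale with an SE of 0.0492 (limma adjusted p = 0.0135). That call was lost without wild-type replicate 1 (limma adjusted p = 0.0504) or replicate 3 (limma adjusted p = 0.0559), and under quantile normalization GLDT was at 0.01 (limma adjusted p = 0.854; adjusted p from 0.00433 over all alternatives).

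The P protein has 2 genes. GLDP2 (AT2G26080), the less abundant, was at 50.4, 49.0 and 52.0 FPKM in wild-type and 42.2, 41.9 and 43.0 FPKM in fip37-4 LEC1:FIP37, and GLDP1 (AT4G33010) at 88.1, 86.2 and 89.6 FPKM and then 83.7, 81.7 and 79.3 FPKM. The groups were separate for each, and the log2 fold change was -0.25 ± 0.0429 for GLDP2 (limma adjusted p = 0.00125) and -0.11 ± 0.0436 for GLDP1, which did not pass (limma adjusted p = 0.0601). Without fip37-4 LEC1:FIP37 replicate 1 GLDP1 passed at -0.13 (limma adjusted p = 0.0144; adjusted p from 0.000527 to 0.183 over all alternatives). The sum of both fell by 0.16 with an SE of 0.0427 (limma adjusted p = 0.0119), or by 0.14 without wild-type replicate 3, where the call was lost (limma adjusted p = 0.05). After removal of the length trend GLDP2 was at -0.42 and the sum at -0.32. Under quantile normalization GLDP2 lost its call at -0.04 (limma adjusted p = 0.436), GLDP1 turned to 0.21 (limma adjusted p = 0.00961) and the sum of the normalized copies to 0.12 (limma adjusted p = 0.0538; adjusted p from 0.000137 over all alternatives).

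The earlier peroxisomal steps showed smaller differences. Glycolate oxidase, which makes glyoxylate and hydrogen peroxide, comes mainly from the neighbouring genes GOX1 (AT3G14420) and GOX2 (AT3G14415), whose coding sequences are alike at 92.4% of aligned bases. GOX2 was at 188, 185 and 188 FPKM in wild-type and 156, 172 and 166 FPKM in fip37-4 LEC1:FIP37. These groups did not overlap, and GOX2 fell by 0.18 with an SE of 0.0486 (limma adjusted p = 0.0113), but was at 0.07 under quantile normalization (limma adjusted p = 0.186; adjusted p from 0.00199 over all alternatives). GOX1, at 309.9, 305 and 315 FPKM and then 280.3, 311 and 301 FPKM, overlapped and did not pass (log2 fold change -0.06 ± 0.0522, limma adjusted p = 0.35). The sum of both was at -0.11 ± 0.0523 (limma adjusted p = 0.115); it passed at -0.13 with nuclear loci only (limma adjusted p = 0.0169; adjusted p up to 0.244 over all alternatives). Under quantile normalization GOX1 was at 0.08 and the sum of the normalized copies at 0.07, neither past the threshold (limma adjusted p = 0.117 and 0.147). GOX1 held 62.2% to 62.6% of that sum in wild-type and 64.2% to 64.5% in fip37-4 LEC1:FIP37 (two-sided exact p = 0.1; 0.117 adjusted).

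The aminotransferases and hydroxypyruvate reductase did not pass. GGT1 (AT1G23310), glutamate:glyoxylate aminotransferase, was at 472, 460.1 and 486 FPKM in wild-type and 427, 463 and 449 FPKM in fip37-4 LEC1:FIP37 (log2 fold change -0.08 ± 0.0514, limma adjusted p = 0.195). It passed with nuclear loci only (limma adjusted p = 0.0451) and under quantile normalization (limma adjusted p = 0.0351; adjusted p up to 0.412 over all alternatives). AGT1 (AT2G13360), serine:glyoxylate aminotransferase, was at 413 to 422 FPKM in wild-type and 399.9 to 438 FPKM in fip37-4 LEC1:FIP37 (log2 fold change 0.01 ± 0.051, limma adjusted p = 0.85). The peroxisomal reductase HPR (AT1G68010), which makes glycerate, was at 205, 197 and 215 FPKM and then 211, 225 and 222 FPKM. Its groups overlapped through replicate 1 of fip37-4 LEC1:FIP37, and the log2 fold change was 0.09 ± 0.0514 (limma adjusted p = 0.151). HPR passed without that replicate at 0.12 (limma adjusted p = 0.0291), after removal of the length trend at 0.12 (limma adjusted p = 0.04) and under quantile normalization at 0.29 (limma adjusted p = 0.000726; adjusted p up to 0.405 over all alternatives).

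PGLP1 (AT5G36700), the phosphoglycolate phosphatase that opens the pathway, could not be tested. It was at 0.485, 0.411 and 0.398 FPKM in wild-type and 0.632, 0.378 and 0.605 FPKM in fip37-4 LEC1:FIP37, under the minimum of 0.5 FPKM in 3 libraries. Its coding sequence of 1089 bases is 100% identical to that of AT5G36790, and the longest stretch shared by their transcripts of 1803 and 1763 bases is 1153 bases, so fragments within it cannot be assigned to one or the other. The sum of both was only 0.821 to 1.04 FPKM and 0.915 to 1.47 FPKM, with overlap (log2 fold change 0.17 ± 0.143, limma adjusted p = 0.329). How fragments that match both copies were treated is not stated, and the level of PGLP1 is uncertain.

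Summed by pathway within each library, photorespiration held 2778, 2706 and 2848 FPKM in wild-type and 2328, 2492 and 2459 FPKM in fip37-4 LEC1:FIP37. The Calvin cycle genes and CP12 held 4559.6, 4476 and 4712 FPKM and then 4804, 5183 and 5068 FPKM. Neither sum overlapped between groups, one being lower and the other higher in fip37-4 LEC1:FIP37. Their ratio does not depend on a factor common to a whole library, but it was not formed under quantile normalization or without the length trend. It was 1.64, 1.65 and 1.65 in wild-type and 2.06, 2.08 and 2.06 in fip37-4 LEC1:FIP37. The ratio of RBCS to photorespiration transcripts was 4.51, 4.67 and 4.53 and then 8.38, 9.19 and 9.56. The 33 members together went from 4.55% ± 0.0506 to 6.71% ± 0.150 of all nuclear FPKM (SD). These ratios were formed after the values had been seen and were not tested.

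**Figure D4:**
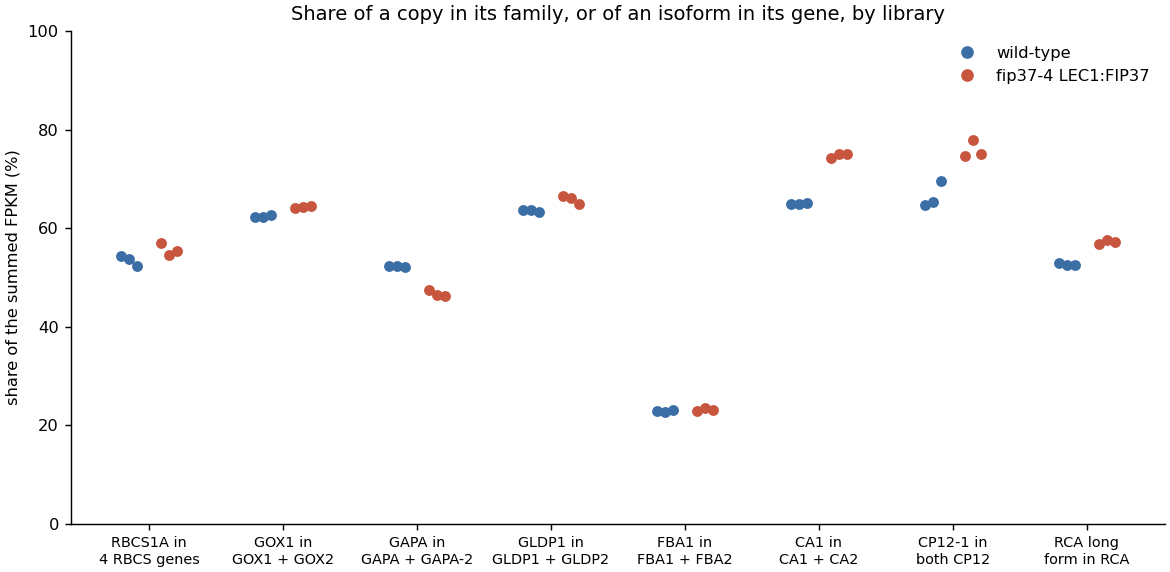
Share (%) of 1 copy in the summed FPKM of its family, or of the RCA long form in RCA, with each library as a point, wild-type in blue and fip37-4 LEC1:FIP37 in red. The groups are separate for 7 of the 8 shares, with the widest gaps for CA1 (65.0% and 74.8% in the means) and CP12-1 (66.5% and 75.9%), and they overlap for FBA1.

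The remaining copy shares differed by less. RBCS1A held 52.4% to 54.3% of the 4 RBCS genes in wild-type and 54.5% to 57.1% in fip37-4 LEC1:FIP37, and GLDP1 held 63.3% to 63.7% and then 64.8% to 66.5% of both GLDP genes (each exact two-sided permutation p = 0.1; 0.117 adjusted). FBA1 held 22.9% and 23.1% of both aldolases in the means (exact two-sided permutation p = 0.5; 0.5 adjusted). The 7 copy shares are ratios within a library, and leaving out any 1 library changed the sign of none of them. Among members with more than 1 transcript in the tables, GAPA-2 AT1G12900.1 held 90.1% and 91.3% of its gene in the means, RPE AT5G61410.1 86.1% and 85.3%, and GLYK AT1G80380.2 89.7% and 90.2%. The lower levels of RPE and GLYK thus stood in their main transcripts, at 235.9, 241 and 248 FPKM against 135, 141 and 138 FPKM for AT5G61410.1, and at 67.0, 63.5 and 68.5 FPKM against 31.1, 31.5 and 30.7 FPKM for AT1G80380.2.

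Across the members, the G-box letters stood in 10 of 33 promoter windows (30.3%) against 7.65% of 27443 windows of nuclear protein-coding loci. The I-box letters stood in 12 (36.4%) against 15%. Of the 10 members with a G-box, 7 were called higher and 0 lower, with a median log2 fold change of 0.27. Among the 7 are RBCS1A, RBCS2B, RBCS3B and RCA, with means of at least 1000 FPKM, where 75.3% of all features were called higher. From 30 to 1000 FPKM, 22% were. Of the 22 tested members without it, 6 were higher and 9 lower, with a median of -0.04. Members with an I-box were higher in 5 and lower in 4 of 12 cases. The G-box was in 4 of 5 windows of Rubisco genes, 4 of 14 of the Calvin cycle and 2 of 12 of photorespiration. It thus goes with the pathway and with the level as well as with the direction. The motifs were chosen with the values known and no test was made; a match shows only that the letters are there.

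**Figure D5:**
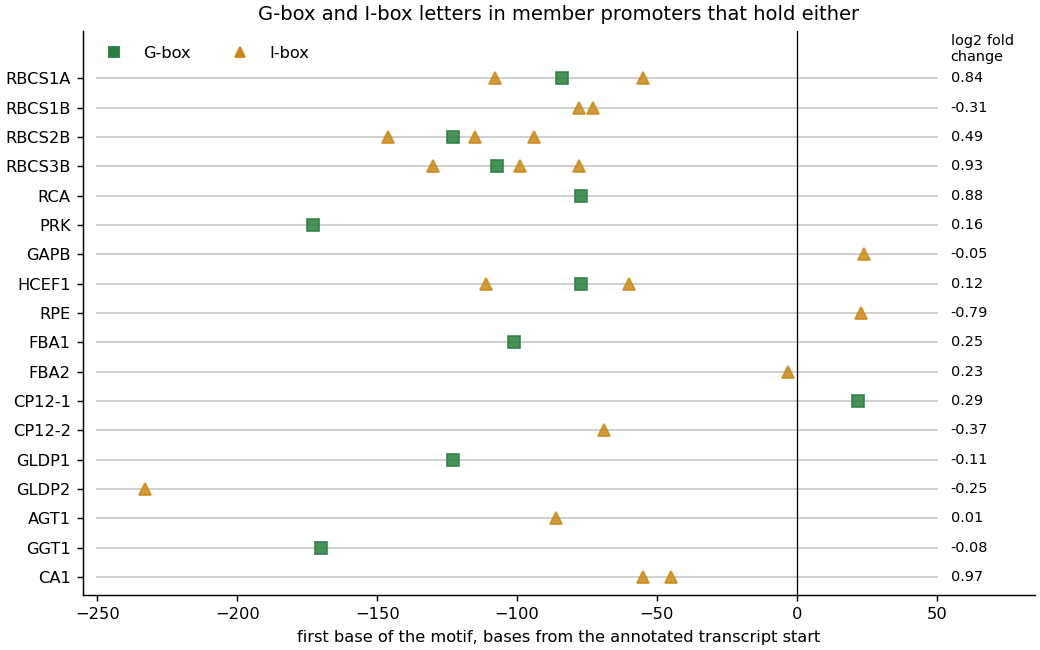
Position of the first base of each G-box (green squares) and I-box (orange triangles), in bases from the annotated transcript start (x axis), in the promoter windows of the 18 members that hold either, with the log2 fold change of each gene at the right. RBCS1B, with a log2 fold change of -0.31, is the RBCS gene without a G-box.

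Other genes of these pathways were counted from lists. The large subunit of Rubisco is encoded in the chloroplast by rbcL (ATCG00490), which rose by 0.49 on the log2 scale (limma adjusted p = 0.00248), and its ratio to the 4 RBCS genes went from 5.65 ± 0.0798 to 4.59 ± 0.145 (SD). Of 9 other Calvin cycle genes 2 rose and 3 fell, near the 27.6% higher and 30.9% lower of all features. Among those that fell were PGK2, the second plastid phosphoglycerate kinase, at -0.42 and TIM, plastid triosephosphate isomerase, at -0.34 (limma adjusted p = 0.000602 and 0.00218). Under quantile normalization 1 of the 9 was lower, and without fip37-4 LEC1:FIP37 replicate 1 the number higher was 4. Of 11 genes for Rubisco assembly and upkeep 3 rose and 7 fell, near the 22% higher and 58% lower among features of 30 to 1000 FPKM. RBCX1, an assembly chaperone, went from 60.2 to 33.1 FPKM in the means (log2 fold change -0.86, limma adjusted p = 4.68e-06), CPN20, the co-chaperonin, stood at -0.54 (limma adjusted p = 7.45e-05), and CBBY, which clears an inhibitory sugar phosphate, at -0.47 (limma adjusted p = 0.000208). The 3 that rose did so by 0.14 to 0.16. The number higher was 0 without wild-type replicate 1 or 2, and 1 without wild-type replicate 3 or fip37-4 LEC1:FIP37 replicate 2 or 3 and with plain empirical Bayes. Quantile normalization gave 4 higher and 4 lower.

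Of 23 other photorespiration genes 1 rose and 12 fell, with a median of -0.27, where 27.6% of all features rose and 30.9% fell. Many of the 23 had a mean under 30 FPKM, so the class of 30 to 1000 FPKM does not match their level. Features with a log10 mean from 1.0 to 1.5 had a median of -0.13, with 22.7% higher and 46.6% lower. Those from 0.5 to 1.0 had a median of 0.02. The plastid dicarboxylate transporters DIT2.1 and DIT1, which carry glutamate and 2-oxoglutarate for refixation of ammonia, were at -0.85 and -0.72 (limma adjusted p = 1.67e-05 and 1.45e-05), and MTLPD2, an L protein gene of glycine decarboxylase, at -0.55 (limma adjusted p = 2.65e-05). CAT2, the leaf catalase that removes peroxisomal hydrogen peroxide, rose from 184 to 224 FPKM in the means, by 0.28 on the log2 scale (limma adjusted p = 0.000617). Under quantile normalization 4 of these 23 were higher and 11 lower. Of 4 other beta-carbonic anhydrases none rose and 3 fell, where 30.9% of all features fell. The 3 were BCA6 at -0.46, BCA5 at -0.34 and BCA4 at -0.29 (limma adjusted p = 0.00165, 0.000589 and 0.00063). At the level of BCA5 and BCA6, a log10 mean from 1.0 to 1.5, 46.6% of features fell. At that of BCA4, from 1.5 to 2.0, 59.7% did. For comparison, 16 of 17 light-harvesting genes rose, with a median of 0.52, where 75.3% of features of at least 1000 FPKM did. LHCB2.3, LHCB2.2 and LHCB2.1, close copies whose split is uncertain, were at 1.11, 0.95 and 0.84 (limma adjusted p = 1.51e-06, 8.22e-06 and 2.3e-05). Under quantile normalization 6 of the 17 were higher and 2 lower.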

How the data were processed

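The deposited values are FPKM per transcript, 1 table per library, made by the authors with TopHat2 2.0.9 and Cufflinks 2.1.1 on build TAIR10, per the submitters' processing notes. Libraries were strand-specific and depleted of ribosomal RNA, per the labels' protocols. The tables do not name the unit, which follows from those tools and the range of the values. The sources used here do not give the annotation, the strand setting or the number of fragments, so depth is unknown, and overlapping antisense genes may not be told apart.

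No count model was run on FPKM. Transcript values were summed per locus, and the 19383 features that reached 0.5 FPKM in 3 or more of 6 libraries were compared on log2(FPKM + 0.5), which understates the change of low genes, with limma 3.58.1 in R 4.3.3 (mean-variance trend, robust empirical Bayes, no term besides genotype, Benjamini-Hochberg adjustment over all features, calls at an adjusted p under 0.05). Copies of a family, with coding sequences alike at 74.5% to 100% of aligned bases, were also summed. Shares within a library were compared by exact two-sided permutation with SciPy 1.17.1 in Python 3.11.15, whose smallest p with 3 against 3 is 0.1. The fit was tested on simulated data. Alternatives were pseudocounts of 0.1 and 1, a filter of 1 FPKM or none, plain empirical Bayes, quantile normalization, median-ratio size factors, nuclear loci rescaled alone, removal of a trend with transcript length, each transcript on its own, each library left out, and the replicate number as a block; quantile normalization before copies are summed was added after seeing the data.

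Symbols, sequences and coordinates came from RefSeq on TAIR10.1, matched by locus for all 33 members; the tables hold no coordinates. The members and lists were chosen with earlier results of these data known. All members are named, and of each list of companion genes the 3 called genes with the largest absolute log2 fold change, besides rbcL, AT5G36790 and CAT2. Markers are given by counts, and only RHD6 and RSL4 are named, for their low levels.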

Additional observations from a re-analysis of the deposited data

How the results depend on the processing

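Pseudocounts of 0.1 and 1, a filter of 1 FPKM or none, plain empirical Bayes, median-ratio size factors and the fit of each transcript on its own changed the call of 0 of the 32 tested members. Quantile normalization changed most: it left 5 members lower in place of 9, 1 Calvin cycle gene lower in place of 2, and 2 photorespiration genes higher and 3 lower in place of 0 and 6. It turned SBPASE to 0.19, GOX2 to 0.066, GLDT to 0.010 and GLDP1 to 0.21. For sums of copies it was run with a sum ranked as 1 feature at the sum's own level, and, chosen after seeing the data, with copies normalized before summing. The first gave the FBA sum at -0.13, the GAPA sum at 0.01 and the GOX sum at -0.13 (called), each below both of its copies under that normalization, the GLDP sum at 0.15 and the 3 chromosome 5 RBCS copies at 0.19 (not called). In the second FBA was at 0.12, GAPA at 0.32, GOX at 0.07, GLDP at 0.12 (reversed, not called), the chromosome 5 copies at 0.24 and CP12 at 0.31 (called). With nuclear loci only the GOX sum passed at -0.13. After removal of the length trend, 1 Calvin cycle gene was lower, 1 photorespiration gene was higher (HPR), and the CP12 sum passed at 0.35 in place of 0.10 (limma adjusted p = 0.00288; adjusted p up to 0.629 over all alternatives). The causes were not tested. With each library left out in turn, 11 to 14 members were higher and 8 to 10 lower, photorespiration had 0 to 1 higher (HPR, without fip37-4 LEC1:FIP37 replicate 1), the GLDP sum lay between -0.18 and -0.14, and the difference in share of the third RCA isoform lay between -0.038 and 0.013 percentage points.

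Both genotypes carry replicate numbers 1 to 3, and the labels do not say whether these numbers pair the libraries. No sign of pairing was seen. The deviations from the group means of same-numbered libraries correlated at -0.0278, -0.0491 and -0.0573, and no library correlated best with its own number. With means of only 3 libraries per group, these values cannot show that the libraries were not paired. With the replicate block, 12 members were higher and 9 lower, since PRK lost its call (limma adjusted p = 0.0507), and 5075 features were higher and 5804 lower in place of 5358 and 5999.

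Depth is unknown, so no limit from fragment counts can be given.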

Other observations

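Genes of the glyoxylate cycle and of fatty acid breakdown, which share the peroxisome with photorespiration and turn seed oil into sugar before the seedling is green, did not move together. Of 11 tested, 2 rose and 5 fell, with a median log2 fold change of -0.00. Over all features 27.6% rose and 30.9% fell. Many of the 11 had a log10 mean from 1.0 to 1.5, where 22.7% of features rose and 46.6% fell, so these counts are near the share at that level. ICL, isocitrate lyase, rose from 3.60 to 16.3 FPKM in the means, by 2.03 on the log2 scale (limma adjusted p = 6.82e-07, higher in 3 of 3 libraries), whereas its partner MLS, malate synthase, named after its value was seen, was at 2.49 and 2.67 FPKM (log2 fold change 0.08, limma adjusted p = 0.478). KAT2, a thiolase of beta-oxidation, and CSY3, peroxisomal citrate synthase, were at -0.49 and -0.42 (limma adjusted p = 5.48e-05 and 0.000115). Under quantile normalization 4 of the 11 were higher and 4 lower.

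Of 8 transcripts often used as references for quantification, none rose and 6 fell in the fip37-4 LEC1:FIP37 libraries (limma adjusted p under 0.05), with a median log2 fold change of -0.40. Over all features 27.6% rose and 30.9% fell. In the level classes with a log10 mean from 1.0 to 2.5, where most of the 8 lie, 46.6% to 59.7% fell. RHIP1, UBC21 and TIP41L were at -0.71, -0.54 and -0.53 (limma adjusted p = 6.24e-05, 8.27e-05 and 0.000296). Under quantile normalization 1 of the 8 was higher and 4 were lower, and 1 was higher without fip37-4 LEC1:FIP37 replicate 1 or 2.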
